A study of Mus musculus with 2 samples.

Results

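Genes for making, packing, taking up and breaking down serotonin were examined in single cells of mouse small-intestinal crypts. The 10 genes were taken by name (Tph1, Ddc, Gch1, Pts, Qdpr, Slc18a1, Slc18a2, Slc6a4, Maoa and Maob), and each was found under 1 identifier among the 31055 genes counted. The labels describe a mouse with a tamoxifen-inducible Cre recombinase and tdTomato at Chga, together with a Rosa26 reporter that turns on eYFP after recombination. It received 1 mg of tamoxifen on 5 days in a row, so every cell group below shares these alleles and this treatment. The Cre works in cells that express Chga, the gene of chromogranin A, and eYFP then stays on in those cells and their descendants. No strain, age or sex is stated in the labels. Sorted eYFP-positive cells and a bulk epithelial sort were stained with 4 hashtag antibodies and run as 1 droplet library, with unique transcript counts (UMIs) from the 3′ ends of RNAs.

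The genes were compared over 4 groups of the 2335 cells kept by the authors. Enterochromaffin (EC) cells were those with at least 5 Tph1 UMIs; 155 of them had at least 10 UMIs of Afp, the gene of alpha-fetoprotein, and 192 had fewer than 10. Peptide hormone cells were the 75 cells with fewer than 5 Tph1 UMIs in which Gcg, Cck, Gip, Ghrl, Sst, Nts and Pyy together made up at least 0.5% of UMIs. The other 1889 cells with fewer than 20 Chga UMIs are called Chga<20 cells, and 24 cells fell in no group. Median UMIs per cell were 14899 in EC Afp>=10 cells, 11450 in EC Afp<10 cells, 12924 in peptide hormone cells and 20437 in Chga<20 cells. Read literally, the Chga threshold also takes in 8 EC cells and 72 peptide hormone cells, which were kept in their endocrine groups. In 19 of the 347 EC cells the peptide hormones also reached 0.5% of UMIs.

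Several facts about the library bear on every value. There is 1 library and no replicate, so no group difference was tested and no p-value is given. A summed level is given as CPM, the gene's share of all UMIs of the summed cells scaled to 1000000, with an exact 95% Poisson interval, and a share of cells with an exact (Clopper-Pearson) 95% interval; both cover counting error only. A ratio is log2 after adding 10 CPM to both levels, and "2-fold higher" or "2-fold lower" means a log2 ratio of at least 1 in size, among genes with at least 20 UMIs over both groups. The labels name 1 mouse, whereas 1744 cells held at least 3 Xist UMIs and no UMI of the Y-linked genes Ddx3y, Eif2s3y, Uty and Kdm5d. Another 252 cells held Y-linked UMIs with at most 2 of Xist, and 88 cells held at least 3 Xist UMIs and at least 1 Y-linked UMI. Results are therefore repeated within the Xist and the Y-linked cells. Which hashtag marks which sort is not stated, so origins are called by tag number. The labelled tissue is epithelium, but 92 Chga<20 cells clustered as B or plasma cell-like and 42 as T cell-like.

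Serotonin is made from tryptophan by tryptophan hydroxylase and then aromatic amino acid decarboxylase. The hydroxylase needs the cofactor tetrahydrobiopterin (BH4), which is built from GTP and regenerated after each turn of the reaction. Vesicular monoamine transporters load the amine into granules, the plasma membrane carrier SERT takes released serotonin back into cells, and monoamine oxidases break it down. EC cells make most of the serotonin of the body, while in the crypt and villus the neighbouring enterocytes express SERT. Tph1 (ENSMUSG00000040046) encodes the hydroxylase and Ddc (ENSMUSG00000020182) the decarboxylase. Gch1 (ENSMUSG00000037580) encodes GTP cyclohydrolase, the entry enzyme of BH4 synthesis, Pts (ENSMUSG00000032067) the enzyme after it, and Qdpr (ENSMUSG00000015806) the reductase that recycles the cofactor. Slc18a1 (ENSMUSG00000036330) encodes VMAT1 and Slc18a2 (ENSMUSG00000025094) VMAT2. Slc6a4 (ENSMUSG00000020838) encodes SERT, and Maoa (ENSMUSG00000025037) and Maob (ENSMUSG00000040147) encode the oxidases.

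Promoter windows are shown for Tph1, which defines the EC cells, and for Slc18a2, the member with the largest difference between the EC groups. They are RefSeq sequences of build GRCm38.p6, 300 bases long, from 250 before to 50 after an annotated transcription start; 8 of the 10 genes had an entry, with 10 windows. Tph1 has an upstream start at chr7:46672488-46672787 and a downstream start at chr7:46667328-46667627, both on the minus strand. Slc18a2 lies at chr19:59260628-59260927 on the plus strand. Sequences read 5′ to 3′ on the gene's strand, and capitals mark matches to 4 motifs searched on both strands: TAATTA (homeodomain type), CGGAAG (ETS type), CAGATG (an E-box) and TGACGT (a CRE half-site).
Tph1 upstream start: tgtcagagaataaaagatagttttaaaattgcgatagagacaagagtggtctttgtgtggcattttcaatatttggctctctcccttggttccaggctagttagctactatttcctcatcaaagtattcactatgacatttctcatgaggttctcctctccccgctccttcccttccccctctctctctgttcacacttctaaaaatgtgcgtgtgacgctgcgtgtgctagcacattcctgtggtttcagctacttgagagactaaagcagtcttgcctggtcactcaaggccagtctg
Tph1 downstream start: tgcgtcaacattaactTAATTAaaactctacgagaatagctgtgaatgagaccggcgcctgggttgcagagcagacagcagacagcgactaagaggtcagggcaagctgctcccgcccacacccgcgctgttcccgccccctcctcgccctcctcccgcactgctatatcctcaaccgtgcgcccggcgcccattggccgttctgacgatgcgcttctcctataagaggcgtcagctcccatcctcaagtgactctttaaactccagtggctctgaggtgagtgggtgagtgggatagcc
Slc18a2: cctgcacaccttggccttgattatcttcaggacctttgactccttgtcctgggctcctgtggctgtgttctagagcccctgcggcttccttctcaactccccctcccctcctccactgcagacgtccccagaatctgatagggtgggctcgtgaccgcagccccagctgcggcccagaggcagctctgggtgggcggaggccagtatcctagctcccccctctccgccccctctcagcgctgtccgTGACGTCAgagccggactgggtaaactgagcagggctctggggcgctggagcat
The downstream Tph1 window held TAATTA at base -234 from the start, a motif present in 5.29% of the 32851 windows of all genes, and the upstream window held none of the 4. The Slc18a2 window held TGACGT on both strands, at bases -4 and -2, as overlapping matches; 7.51% of all windows hold this motif. Among the other members, the Pts window held CGGAAG at -24 (16.9% of all windows) and the Qdpr window CAGATG at -217 (17.2% of all windows). The windows of Ddc, Gch1, Slc6a4 and Maoa held none of these letters. A match is a string of letters and not a site of binding. These data do not show which start is used in these cells.

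The order of the groups differed between the members. Ddc, Gch1, Qdpr, Slc18a1 and Slc18a2 were highest in EC Afp>=10 cells, next in EC Afp<10 cells, then in peptide hormone cells and lowest in Chga<20 cells, with only the Slc18a2 intervals of the last 2 groups overlapping. These intervals cover counting error only. The share of all genes with such an order or with separate intervals was not counted, so neither is shown to be particular to these members. Pts spanned a narrower range, from 62.5 CPM in peptide hormone cells to 117 CPM in EC Afp>=10 cells, with 86.2 CPM in Chga<20 cells. Maoa ran in the opposite order and was highest in Chga<20 cells, with overlapping intervals in the EC groups. Maob and Slc6a4 stayed under 20 CPM in every group, and Maob did not share the Maoa order, with 17.0 CPM in EC cells and 9.64 CPM in Chga<20 cells. A CPM here counts captured 3′ ends, so the order holds within a gene and not between genes.

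**Figure D1:**
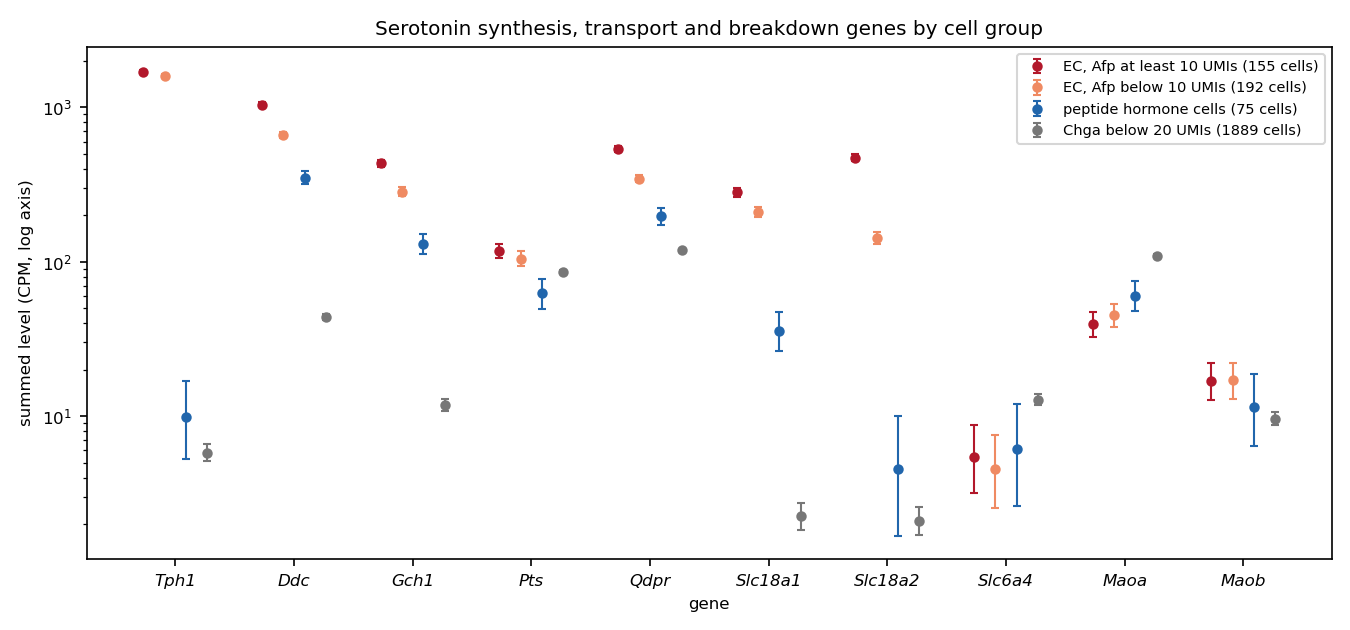
Summed level of each of the 10 genes (y axis, CPM, log scale) in the 4 cell groups, with exact 95% Poisson intervals for counting error. Slc18a2 stands at 471 CPM in EC Afp>=10 cells and 143 CPM in EC Afp<10 cells, while Tph1 stands at 1694 and 1601 CPM and Maoa is highest in Chga<20 cells at 109 CPM.

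Within EC cells, Slc18a2 set the Afp groups apart more than any other member. Its per-cell level in EC Afp>=10 cells had a median of 479.8 CPM with a range of 0 to 2742 CPM, and in EC Afp<10 cells a median of 108 CPM with a range of 0 to 2744 CPM. Most Afp>=10 cells were therefore high and the Afp<10 cells were spread from 0 upwards, with ranges that overlap almost fully. Summed, Slc18a2 had 1471 UMIs in EC Afp>=10 cells (471.0 CPM, 447 to 496) and 469 UMIs in EC Afp<10 cells (143 CPM, 130 to 156). The log2 ratio was 1.66 (1.51 to 1.80), the 14th highest of 11147 genes. Of the 10 members 1 was 2-fold higher and none was 2-fold lower, where 0.61% of all measured genes were 2-fold higher and 0.153% lower; the median log2 ratio was 0.27 over the members and -0.03 over all genes. Slc18a2 was also 2-fold higher within each of 4 subsets, of which the tag subsets share cells. The first tag subset held cells with at least 3 times as many counts of tags 1 and 2 as of tags 3 and 4. The other held cells below the valley of the tag ratio, at log2 2.875 of tags 1 and 2 over tags 3 and 4. Cells below the valley include ones with more of tags 1 and 2. The log2 ratio was 1.66 in the first tag subset (128 Afp>=10 and 156 Afp<10 cells) and 1.46 below the valley (39 and 45 cells). It was 1.96 (1.74 to 2.18) in cells with Xist and 1.29 (1.01 to 1.57) in cells with Y-linked UMIs, and these intervals do not overlap.

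The enzymes of synthesis did not reach 2-fold. Tph1 ranged from 253 to 8366 CPM per cell in EC Afp>=10 cells (median 1826) and from 106 to 7949 CPM in EC Afp<10 cells (median 2238). Its sums were 1694 and 1601 CPM with a log2 ratio of 0.08 (0.03 to 0.14), and the sign was negative under 4 of 17 alternatives, among them -0.19 when each cell counted equally and -0.18 when cells were thinned to 5000 UMIs. Tph1 also chose the EC cells, so its level is a description. Ddc had 1044 CPM in EC Afp>=10 cells (per-cell median 1229) and 660.0 CPM in EC Afp<10 cells (per-cell median 813), a log2 ratio of 0.65 (0.58 to 0.73). At 2000 UMIs per cell a Ddc UMI was found in 85.8% of EC Afp>=10 cells and 76.2% of EC Afp<10 cells.

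For the BH4 cofactor, the entry and recycling enzymes had the largest ratios, both short of 2-fold. Gch1 had 434 CPM in EC Afp>=10 cells and 285 CPM in EC Afp<10 cells (log2 ratio 0.59, 0.47 to 0.71), and Qdpr had 538 and 346 CPM (0.62, 0.51 to 0.73). Pts differed by 0.15, within counting error. Of the BH4 genes Gch1, Gchfr, Pts, Spr, Qdpr, Pcbd1 and Pcbd2 none passed 2-fold, and Spr, the sepiapterin reductase that finishes BH4, had 70.8 CPM in EC Afp>=10 cells against 92.2 CPM in EC Afp<10 cells (-0.34, -0.57 to -0.11). The cofactor of Ddc is vitamin B6. Pdxk, the kinase that phosphorylates it, had 139.9 CPM in EC Afp>=10 cells and 118 CPM in EC Afp<10 cells (0.23, 0.04 to 0.42).

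Both vesicular transporters were detected in EC cells, in different proportions. Slc18a1 had 282 CPM in EC Afp>=10 cells and 211 CPM in EC Afp<10 cells, a log2 ratio of 0.40 (0.27 to 0.54). Slc18a2 made up 62.5% (60.5 to 64.5%) of the UMIs of both transporters in EC Afp>=10 cells and 40.4% (37.5 to 43.2%) in EC Afp<10 cells. At 5000 UMIs per cell both transporters were found in 107 of 152 EC Afp>=10 cells and 57 of 166 EC Afp<10 cells. Slc18a1 without Slc18a2 was found in 11 of these EC Afp>=10 cells and 59 of these EC Afp<10 cells. Slc18b1, a vesicular polyamine transporter, had 34.3 and 24.6 CPM in the same order (0.35, 0.03 to 0.67), and Slc18a3 and Slc17a9 were too low to measure.

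No gene of uptake or breakdown reached 2-fold between the EC groups with 10 CPM added, an addition that shrinks the ratios of genes at low levels. Slc6a4 had 17 UMIs in EC Afp>=10 cells and 15 in EC Afp<10 cells. Maoa had 39.4 CPM in EC Afp>=10 cells and 45.0 CPM in EC Afp<10 cells (log2 ratio -0.16, -0.44 to 0.13), and Maob had 17.0 CPM in both. The Maoa ratio was 0.26 in cells with Xist and -0.89 in cells with Y-linked UMIs, with intervals of -0.13 to 0.65 and -1.65 to -0.09 that overlap. Among organic cation carriers, which move monoamines with low affinity, Slc22a3 had 44 UMIs in EC Afp>=10 cells and 14 in EC Afp<10 cells (14.1 and 4.26 CPM; 0.76, 0.39 to 1.06). Of 6 measured genes of tryptophan uptake and use none passed 2-fold, and Slc6a19, an epithelial carrier of neutral amino acids, came nearest with 55.7 and 30.1 CPM (0.71, 0.42 to 1.00). Of 5 measured transcription factors tied to the serotonin programme none passed 2-fold; Nkx2-2 was at 305 and 221 CPM (0.45, 0.32 to 0.59) and Lmx1a at 226 and 171 CPM (0.38, 0.23 to 0.54). None of the 13 serotonin receptor genes reached 20 UMIs.

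Other features of the cells also differed in level between the Afp groups. Chga itself had 10629 CPM in EC Afp>=10 cells and 6741 CPM in EC Afp<10 cells. Stem-like markers (10 genes, all detected) summed to 1818 CPM in EC Afp>=10 cells and 3979 CPM in EC Afp<10 cells, tuft-like markers (10 genes, 1 and 2 of them at 0) to 73.0 and 17.0 CPM, and the peptide hormone list (8 genes, all detected) to 5757 and 2894 CPM. That list's sum rests on few cells. Among EC Afp>=10 cells, 5 cells held 7630 of 8916 Cck UMIs, 2690 of 2775 Ghrl UMIs and 2706 of 3025 Gip UMIs, and the per-cell median of Cck was 66.1 CPM, against 93.1 CPM in EC Afp<10 cells. Myeloid markers (6 genes, 4 and 3 of them at 0) summed to 60.5 CPM in EC Afp>=10 cells and 18.9 CPM in EC Afp<10 cells, B or plasma cell markers (10 genes, 4 at 0 in each group) to 216 and 449 CPM, and enteric neural or glial markers (8 genes, 3 and 4 at 0) to 12.5 and 29.2 CPM. In the clustering of all cells, 92 EC Afp>=10 cells fell in cluster 8 and 14 in cluster 5, against 17 and 100 EC Afp<10 cells; Slc18a2 is among the leading genes of cluster 8. The part of Chga and of stem-like, tuft-like, peptide hormone, myeloid, B or plasma cell and neural or glial markers in the Slc18a2 result was not tested. Without the EC cells of goblet-like and tuft-like clusters the Slc18a2 ratio was 1.69, without EC cells that also held peptide hormones it was 1.71, and at 5000 UMIs per cell 1.60. Mast cells also hold Slc18a2 and Tph1. The 9 mast cell markers summed to 22.1 CPM in EC Afp>=10 cells and 26.5 CPM in EC Afp<10 cells. The UMIs were those of Kit (56 and 76) and Hdc (13 and 11). The other 7 were at 0 in both, Cpa3, Mcpt1, Mcpt2, Cma1, Tpsb2, Fcer1a and Ms4a2. The part of mast cells in the Slc18a2 result was not tested. Tph2, the neuronal hydroxylase, had no UMI in any EC cell.

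**Figure D2:**
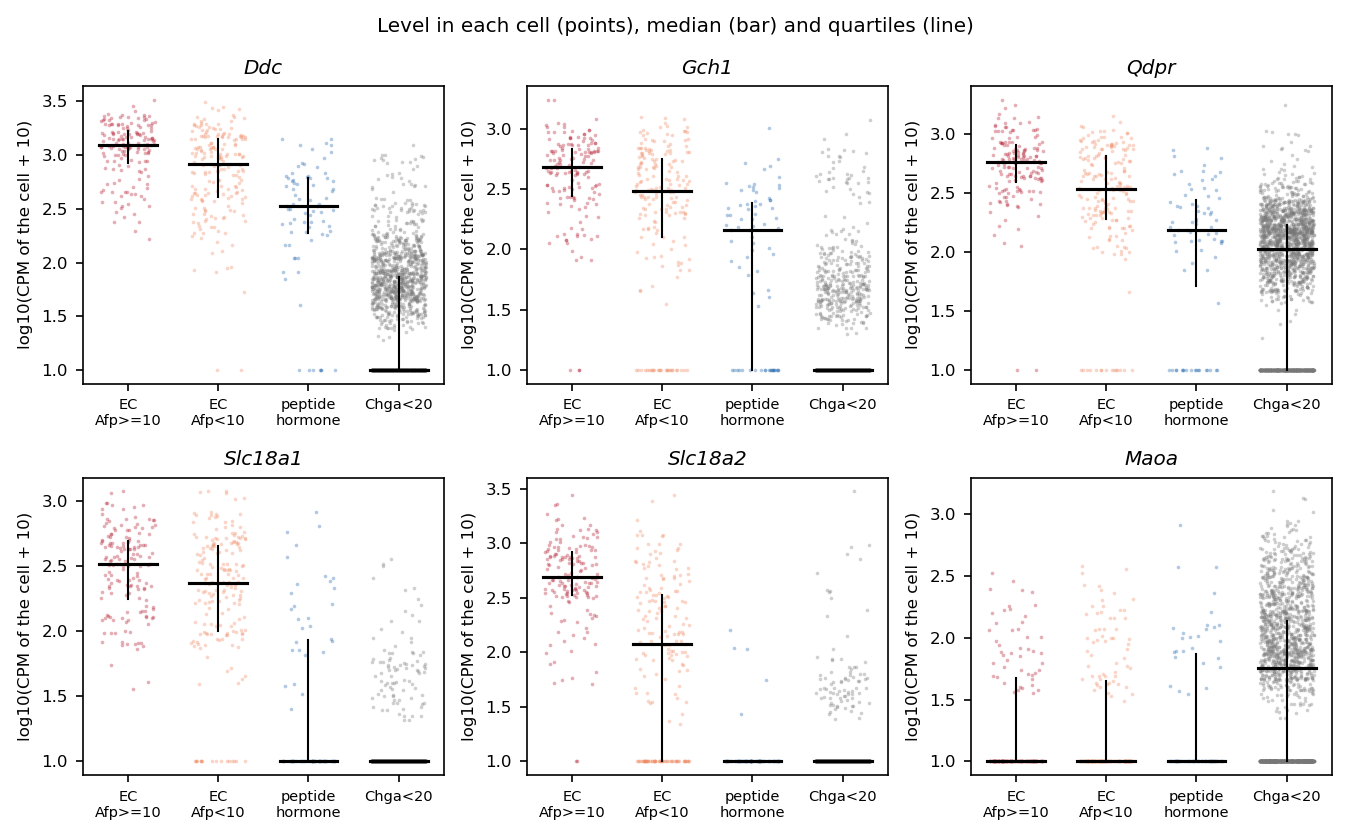
Level of 6 members in every cell of the 4 groups (y axis, log10 of the cell's CPM plus 10, so cells without a UMI sit at 1), with the median as a bar and the quartiles as a line. Slc18a2 separates the EC groups most, with medians of 479.8 CPM in EC Afp>=10 cells and 108 CPM in EC Afp<10 cells.

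**Figure D3:**
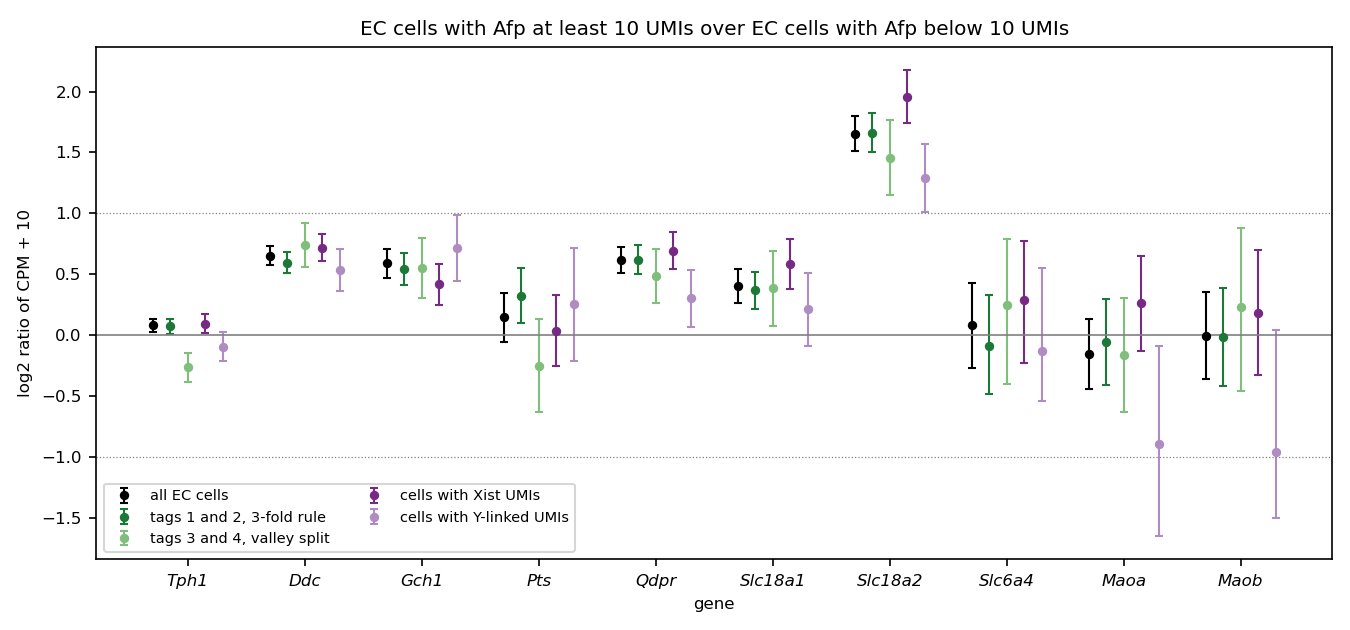
Log2 ratio of EC Afp>=10 over EC Afp<10 cells for each member (y axis, CPM plus 10), in all EC cells and in 4 subsets by hashtag or by sex-linked transcripts, with exact 95% intervals and dotted lines at 2-fold. Slc18a2 lies above 2-fold in all of them, from 1.29 to 1.96. The oxidases spread widest between subsets but on few UMIs: in cells with Y-linked UMIs Maoa had 10 and 29, and Maob 2 and 11.

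Along finer steps of Afp, the Slc18a2 level also varied inside both groups. It was 107 CPM in the 115 EC cells with no Afp UMI, 200.2 at 1 to 4 UMIs, 171 at 5 to 9, 349.6 at 10 to 19, 504 at 20 to 49, 422 at 50 to 99 and 585 CPM in the 42 cells with 100 or more. The steps at 5 to 9 and at 50 to 99 UMIs broke the order. The Slc18a2 share of both transporters was 34% in cells with no Afp UMI and 66.3% in cells with 100 or more. Tph1 had no such course, from 1304 CPM at 5 to 9 Afp UMIs to 1757 CPM at 50 to 99. Ddc was 568 CPM at no Afp UMI and 1134 CPM at 100 or more. Deeper cells reach a UMI threshold more easily, and the median depth was 10993 UMIs in the lowest step and 22480 in the highest. Next to the threshold, Slc18a2 had 304 CPM in the 12 cells with 10 or 11 Afp UMIs and 276 CPM in the 5 cells with 8 or 9.

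**Figure D4:**
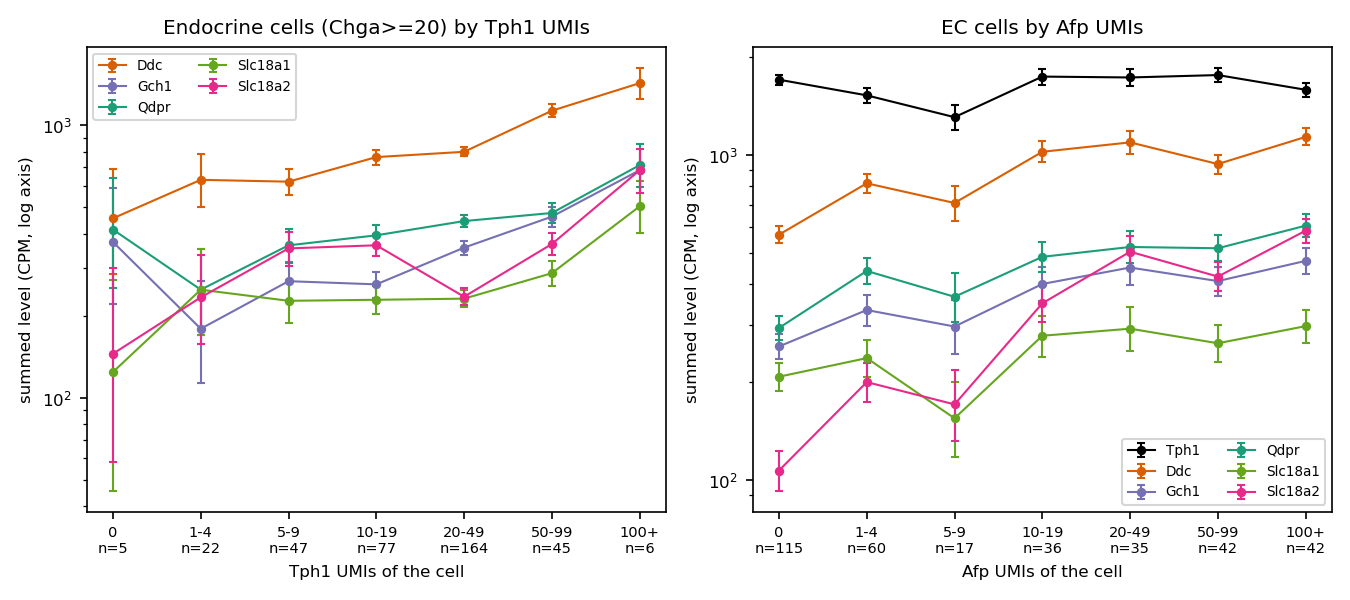
Left, summed level of 5 members (CPM, log axis) in cells with at least 20 Chga UMIs by their Tph1 UMIs; right, 6 members in EC cells by their Afp UMIs; bars are exact 95% Poisson intervals and n is the number of cells. Ddc is 455 CPM at 0 Tph1 UMIs and 1427 CPM at 100 or more, whereas along Afp the widest span is that of Slc18a2, from 107 CPM at 0 to 585 CPM at 100 or more.

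Compared with peptide hormone cells, EC cells had more of the enzymes and transporters of serotonin, while Ddc, Gch1 and Qdpr were above 100 CPM in peptide hormone cells as well. Of the 10 members 6 were 2-fold higher in EC cells and none was 2-fold lower, where 3.2% of 11465 measured genes were higher and 1.27% lower. Tph1 chose both groups, so its difference is fixed by that choice (1646 CPM in EC cells, 9.90 CPM in peptide hormone cells). The median log2 ratio was 1.18 over the members and 0.03 over all genes.

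The transporters stood furthest apart after Tph1. Slc18a2 had 1940 UMIs in EC cells (303 CPM) and 6 UMIs in peptide hormone cells (4.57 CPM, 1.68 to 9.95), a log2 ratio of 4.42 (3.97 to 4.75). Slc18a1 had 246 CPM in EC cells and 35.8 CPM (26.3 to 47.6) in peptide hormone cells, a log2 ratio of 2.48 (2.14 to 2.82). In peptide hormone cells the transporter UMIs were thus mostly Slc18a1, and Slc18a2 made up 11.3% (4.27 to 23.0%). With cells thinned to 2000 UMIs, Slc18a1 was found in 46.5% of EC cells, 11.3% of peptide hormone cells and 0.843% of Chga<20 cells. In B or plasma cell-like cells, which should lack it, 1.30% of 77 cells held a Slc18a1 UMI at that depth, and in T cell-like cells 0 of 30, which allows a share of up to 11.6%. Unthinned median depths were 12924 UMIs in peptide hormone cells, 2611.5 in B or plasma cell-like cells and 3030 in T cell-like cells. By CPM, Slc18a1 had 0 UMIs in T cell-like cells, where 3 UMIs would be 25.05 CPM.

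Among the enzymes, Ddc ranged from 0 to 3280 CPM per cell in EC cells (median 1042) and from 0 to 1398 CPM in peptide hormone cells (median 326). The ranges overlapped. Summed, Ddc had 847 CPM in EC cells and 351 CPM in peptide hormone cells (log2 ratio 1.25, 1.11 to 1.38). Gch1 had 358 CPM in EC cells and 130.3 CPM in peptide hormone cells (1.39, 1.18 to 1.61), and Qdpr 439.5 and 197 CPM (1.12, 0.95 to 1.30). In the cells with Xist alone, the count of 2-fold higher members was 4, where 3.32% of all measured genes were 2-fold higher, with Ddc at 0.96 and Qdpr at 0.97. In cells below the valley of the tag ratio (84 EC and 14 peptide hormone cells), Ddc was at 0.85, Gch1 at 0.96 and Qdpr at 0.60. Pts reached 0.74 (0.45 to 1.04), and Gchfr, Spr, Pcbd1 and Pcbd2, also of the BH4 list, lay between -0.53 and 0.03. Pdxk passed 2-fold, with 129 CPM in EC cells and 54.8 CPM in peptide hormone cells (1.10, 0.79 to 1.40).

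With 10 CPM added, no measured breakdown gene or monoamine uptake carrier reached 2-fold between EC and peptide hormone cells. Slc22a3 came nearest among the carriers, with 58 UMIs in EC cells (9.05 CPM) and 0 in peptide hormone cells (log2 ratio 0.93, 0.54 to 0.93). The added 10 CPM exceeds its level and shrinks its ratio. Maoa had 42.3 CPM in EC cells and 60.2 CPM in peptide hormone cells (log2 ratio -0.42, -0.74 to -0.11), and Maob and Slc6a4 differed within counting error. The Maoa ratio depended on few cells. It was -0.004 without the 5 cells with most Maoa UMIs in each group, and -1.08 without the highest doublet scores. Of 9 measured breakdown and conjugation genes none passed 2-fold, and their median was -0.24. Of 6 measured genes of tryptophan uptake and use 1 was 2-fold lower, Slc16a10, an aromatic amino acid carrier, with 17.8 CPM in EC cells and 48.0 CPM in peptide hormone cells (-1.06, -1.41 to -0.71), and Slc6a19 had 42.6 and 94.5 CPM (-0.99). Of 5 measured transcription factors 3 were 2-fold higher in EC cells. Lmx1a, a LIM homeodomain factor of EC cells, had 198 and 1.52 CPM (4.17), Fev, an ETS factor known from serotonin neurons, 300.02 and 92.2 CPM (1.60), and Nkx2-2 261.9 and 112 CPM (1.16). Insm1 and Neurod1 were at 0.43 and 0.95.

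Peptide hormone cells differed among themselves by their leading hormone. Ddc was 528 CPM (461 to 603) in the 25 cells led by Gip, 332 CPM (285 to 384) in the 32 led by Cck, 202 CPM (145 to 272) in the 10 led by Ghrl and 117 CPM (58.4 to 209) in the 6 led by Sst. Slc18a1 had 67.2 CPM (36.7 to 113) in cells led by Ghrl, 44.8 CPM (28.7 to 66.6) in those led by Cck, 14.4 CPM (5.29 to 31.4) in those led by Gip and 21.3 CPM (2.58 to 76.9) in those led by Sst. The Ddc interval of Gip-led cells lay above all others. For Slc18a1, the interval of Ghrl-led cells lay above that of Gip-led cells and all other pairs overlapped. Genes of other monoamines were near the limit of counting. Th, the tyrosine hydroxylase of catecholamine synthesis, had 14 UMIs in the 347 EC cells (2.18 CPM) and 14 UMIs in the 75 peptide hormone cells. Of those in peptide hormone cells, 10 were in Gip-led cells (24.0 CPM, 11.5 to 44.2) and 3 in Sst-led cells (31.9 CPM, 6.58 to 93.3), with intervals that overlap.

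Against Chga<20 cells, the same 6 members were 2-fold higher in EC cells and Maoa was 2-fold lower, where 7.39% of 13667 measured genes were higher and 1.04% lower. Tph1 and Chga chose these groups. The log2 ratios were 6.71 for Tph1 (1646 CPM in EC cells, 5.81 CPM in Chga<20 cells), 4.69 for Slc18a2 (303 and 2.10 CPM), 4.38 for Slc18a1 (246 and 2.26 CPM), 4.08 for Gch1 (358 and 11.8 CPM), 3.99 for Ddc (847 and 44.1 CPM) and 1.81 for Qdpr (439.5 and 118 CPM). Pts differed little, with 111 CPM in EC cells and 86.2 CPM in Chga<20 cells (0.33, 0.22 to 0.44). All 5 of Tph1, Ddc, Gch1, Slc18a1 and Slc18a2 were found at 5000 UMIs per cell in 96 of 152 EC Afp>=10 cells (63.2%), 48 of 166 EC Afp<10 cells (28.9%), 0 of 59 peptide hormone cells (up to 6.06%) and 0 of 1572 Chga<20 cells (up to 0.234%). The peptide hormone and Chga<20 counts are limited by the choice of groups, since both required fewer than 5 Tph1 UMIs. Of the 75 peptide hormone cells only 9 held any Tph1 UMI. The 5 transcription factors measured were all 2-fold higher in EC cells, with log2 ratios from 3.75 for Insm1 to 5.09 for Neurod1. Slc6a19 was higher too (42.6 and 3.18 CPM, 2.0), and the sulfotransferase gene Sult1b1 was lower (20.1 and 58.3 CPM, -1.18).

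Maoa was 2-fold lower in EC cells over all tags, while Slc6a4 and Maob did not reach 2-fold. Maoa had 42.3 CPM in EC cells and 109 CPM in Chga<20 cells (log2 ratio -1.19, -1.33 to -1.04). The Maoa ratio did not reach 2-fold among cells below the valley of the tag ratio, with -0.87 (-1.10 to -0.64) in 84 EC and 1312 Chga<20 cells. Among cells of tags 3 and 4 under the 3-fold rule it was -0.46 (-0.93 to -0.02), in 11 EC and 399 Chga<20 cells. Slc6a4 had 4.99 and 12.8 CPM (-0.60, -0.78 to -0.41). Maob was 17.0 CPM in EC cells and 9.64 CPM in Chga<20 cells (0.46, 0.27 to 0.65). The Chga<20 level of Maoa is a sum over classes that differed widely. Enterocyte-like cells had 341 CPM of Maoa (326 to 356), stem-like cells 36.4 CPM and Paneth-like cells 10.8 CPM, so EC cells lay above Paneth-like cells, and their interval (37.4 to 47.6) overlapped that of stem-like cells (32.5 to 40.6). Slc6a4 was 29.6 CPM and Maob 30.5 CPM in enterocyte-like cells. Cluster 11, the enterocyte-like cluster led by Fabp1 and Apoa1, had 456 CPM of Maoa and 54.3 CPM of Maob, and cluster 6, led by Gsdmc4, had 257 and 13.0 CPM. Clusters were built on all variable genes, so these class levels are a description.

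Traces of the synthesis genes outside the endocrine groups varied by class. Ddc had 93.0 CPM in enterocyte-like cells (85.5 to 101), 32.8 CPM in stem-like cells of the Chga<20 group and 8.37 CPM in Paneth-like cells. In cluster 14, an unnamed cluster led by Neurog3, the factor that starts endocrine differentiation, the 31 Chga<20 cells had 94.8 CPM of Ddc (76.5 to 116) with 5.10 CPM of Tph1 (5 UMIs) and 2.04 CPM of Gch1 (2 UMIs). Gch1 had 96.7 CPM in B or plasma cell-like cells (31 UMIs, 65.7 to 137) and 83.5 CPM in T cell-like cells (10 UMIs, 40.0 to 154). In B or plasma cell-like cells that level stood beside 103 CPM of Chga, and EC cells had 358 CPM of Gch1 beside 8636 CPM of Chga. The source of the Gch1 UMIs in B or plasma cell-like cells was not tested. Tph1 in B or plasma cell-like cells was 18.7 CPM (6 UMIs). Among the 1889 Chga<20 cells, 204 held a Tph1 UMI (10.8%), and 2.08% did at 2000 UMIs per cell. At that depth 6.49% of B or plasma cell-like cells and 1 of 30 T cell-like cells did, and these cells are part of the Chga<20 group. Median depths before thinning were 20437 UMIs in Chga<20 cells, 2611.5 in B or plasma cell-like cells and 3030 in T cell-like cells. The source of these Tph1 UMIs was not tested. Of the Chga<20 cells 11 clustered as enteroendocrine-like, and without them the same 6 members stayed 2-fold higher in EC cells.

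**Figure D5:**
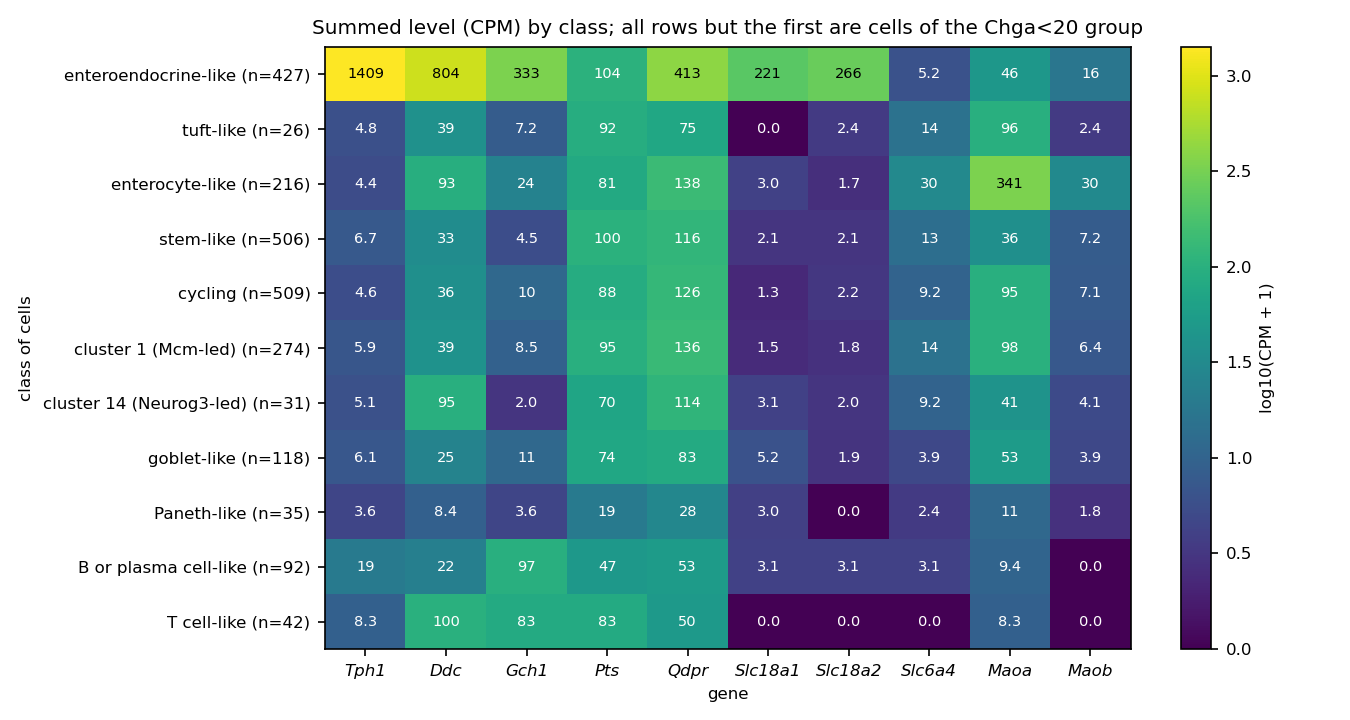
Summed level in CPM (numbers) of each member (columns) by class of cells (rows), coloured by log10 of CPM plus 1; the first row holds all enteroendocrine-like cells and the others only Chga<20 cells of that class. Maoa, Maob and Slc6a4 are highest in enterocyte-like cells, at 341, 30.5 and 29.6 CPM, and Gch1 outside the endocrine row is highest in B or plasma cell-like cells at 96.7 CPM.

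Co-expression with Tph1 was described from cell to cell. Over the 422 cells of the 3 endocrine groups, Pearson's r with Tph1 was 0.61 for Slc18a1, 0.60 for Ddc, 0.49 for Slc18a2, 0.48 for Gch1 and 0.43 for Qdpr, and these were ranked 19th to 81st of 9812 genes. An r of at least 0.3 was reached by these 5 members and by 2.27% of the 9812 genes. It was 0.17 for Pts, 0.12 for Maob, -0.04 for Slc6a4 and -0.21 for Maoa. These are correlations across cells of 1 library, on the log scale of the cell's share of UMIs, and Tph1 itself chose the groups, so that they partly restate the difference between EC and peptide hormone cells. Within the 347 EC cells, where the minimum of 5 Tph1 UMIs narrows the range, r was 0.56 for Ddc, 0.44 for Slc18a1, 0.38 for Gch1, 0.21 for Qdpr, 0.14 for Slc18a2 and -0.34 for Maoa. There 3 members and 1.24% of the 9812 genes reached 0.3. Slc18a2 thus followed Tph1 least of the synthesis and packing genes within EC cells, apart from Pts at -0.03. With EC cells thinned to 5000 UMIs the values were 0.55 for Ddc, 0.33 for Slc18a1, 0.14 for Slc18a2 and -0.15 for Maoa.

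The genes most like Tph1 over the endocrine cells were Tac1, the tachykinin gene (r = 0.87), the granin genes Chga (0.85) and Chgb (0.84), the sodium channel gene Scn3a (0.79), Gstt1 (0.76), Parp1 (0.75), Vim (0.74), Lmx1a (0.70), Rab3c (0.70) and Tpbg (0.69). Lowest were Isl1 (-0.66), Rbp4 (-0.63) and Scg2 (-0.59), all near 0 within EC cells (from -0.06 to 0.004). For Ddc the closest genes were Selenop (0.73), Camk2n1 (0.72), Fbxo9 (0.72), Gstt1 (0.71) and Fxyd6 (0.71), and Gch1 stood 13th at 0.62. For Slc18a1 they were Chga (0.66), Tph1 (0.61), Tpbg (0.61), Chgb (0.60) and Camk2n1 (0.57). For Slc18a2 they were S100a1 (0.68), Chga (0.68), Afp (0.67), Tpbg (0.66) and Me2 (0.62), and within EC cells Chga (0.62) and Afp (0.61) came first. Of the partners named for Slc18a2, Chga and Tpbg were shared with Slc18a1, and Afp and S100a1 were not among the 5 closest to Slc18a1.

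Along steps of Tph1, in cells with at least 20 Chga UMIs, Ddc had 621 CPM in the 47 cells with 5 to 9 Tph1 UMIs, 764 CPM at 10 to 19, 799 CPM at 20 to 49, 1131 CPM at 50 to 99 and 1427 CPM in the 6 cells with 100 or more. Gch1 went with it, from 268 to 684 CPM over the same steps. Slc18a2 did not, with 353, 363, 235, 366 and 684 CPM. Median depth over these steps was 6468, 9756, 12500, 22992 and 30916 UMIs, so depth moved with Tph1 and its part was not tested. Next to the EC threshold, the 21 cells with 5 or 6 Tph1 UMIs had 633 CPM of Ddc and 375 CPM of Slc18a2, and the 12 cells with 3 or 4 had 469 and 207 CPM, at median depths of 8944 and 3052.5 UMIs.

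By hashtag, EC cells were divided by the 3-fold rule or at the valley of the tag ratio. These do not make the same contrast, and the differences depended on the rule. With tag counts at least 3 times those of the other pair, 284 EC cells belonged to tags 1 and 2 and 11 to tags 3 and 4, and 6 members were 2-fold higher in the first set, where 5.46% of all measured genes were 2-fold higher and 1.22% lower (Tph1 1868 and 649 CPM, Ddc 965 and 275 CPM, Slc18a2 347 and 102 CPM). The valley left 263 EC cells above it and 84 below. Cells below it include ones with more of tags 1 and 2, so they are not a set of tags 3 and 4. None of the members reached 2-fold above over below, where 0.323% of genes were 2-fold higher and 0.359% lower. Ddc had 997 CPM above the valley and 519.5 CPM below (log2 ratio 0.93) and Tph1 1897 and 1097 CPM (0.78). Under the 3-fold rule Maoa had 35.03 CPM in tags 1 and 2 and 70.5 CPM in tags 3 and 4. It had 34.5 CPM above the valley and 59.3 CPM below, and both differences were short of 2-fold on the log2 scale used. Between EC cells with Y-linked UMIs (83 cells) and with Xist (176 cells), Slc18a2 had 398 and 229 CPM (0.77, 0.61 to 0.94) and Tph1 2001 and 1574 CPM (0.34, 0.27 to 0.41). Afp>=10 cells made up 38 of the 83 and 66 of the 176.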

How the data were processed

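Raw UMI counts per gene and cell, and hashtag antibody counts per cell, were used as the authors deposited them. Cell Ranger and Seurat are named in the submitters' processing notes, with GRCh38 as the build although the gene identifiers are those of mouse; version 3.1.0 of the software stands in the header of the matrix. The rule by which the authors kept 2335 cells is not stated. The table holds 51238250 UMIs, with 1002 to 129719 per cell (median 19078).

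The members, lists and comparisons were chosen with earlier results of these data known. UMIs were summed per group, and log2 ratios of CPM plus 10 were taken with intervals from the exact conditional binomial, over genes with at least 20 UMIs in both groups together. The method was tried on simulated Poisson counts, with intervals taken without the added CPM. Those counts hold no spread between cells, so the trial does not cover such spread. With 1 library no test was possible. Cells were clustered with scanpy 1.11.5 (2000 variable genes, 30 components, 15 neighbours, Leiden resolution 1), giving 18 clusters of which 15 were named from marker lists. Scrublet called 2 doublets (0.0857%), which is no working call, so no doublet was removed and the 140 highest scores were left out in an alternative. Named genes were all members, the genes most and least correlated with Tph1, those closest to Ddc, Slc18a1 and Slc18a2, and pathway lists, of which 1 gene is not reported here. Python 3.11.15, numpy 2.4.6, pandas 2.3.3 and scipy 1.17.1 were used.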

Additional observations from a re-analysis of the deposited data

Results flagged for a closer look

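The 24 cells that fell in no group held Tph1 at 382 CPM (54 UMIs, 287 to 498), although no comparison uses them. Their median depth was 2963.5 UMIs. In the same cells Ddc had 601 CPM, Slc18a2 254 CPM and Slc18a1 226 CPM, and 22 of the 24 clustered as enteroendocrine-like.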

How the results depend on the processing

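Slc18a2 was 2-fold higher in EC Afp>=10 than in EC Afp<10 cells under all 17 alternatives, with a log2 ratio from 1.26 (each cell counted equally) to 1.96 (cells with Xist). Alternatives that change only the minimum of UMIs leave the ratio of every member as it was, so they could not differ. The count of members 2-fold lower in EC than in peptide hormone cells was 1 (Maoa) without the highest doublet scores, against 0. Against Chga<20 cells the lower count was 2 at a pseudocount of 1 CPM (Slc6a4 and Maoa) and 0 at 50 CPM, against 1. The count of members with r of at least 0.3 with Tph1 was 3 in EC cells only, where 1.24% of 9812 genes reached it, against 5 in all endocrine cells, where 2.27% did. The count of members 2-fold higher in tags 1 and 2 was 0 at the valley of the tag ratio, where 0.323% of genes were, against 6 under the 3-fold rule, where 5.46% were. Over the alternatives, the share of all genes 2-fold higher ran from 0.197 to 2.16% between the EC groups, from 1.06 to 7.95% against peptide hormone cells and from 2.23 to 16.4% against Chga<20 cells; the shares 2-fold lower ran from 0.0359 to 1.6%, from 0.331 to 3% and from 0.293 to 5.49%. Causes were not tested. The alternatives without goblet-like and tuft-like EC cells, without enteroendocrine-like Chga<20 cells, and with Tph1, Afp and Chga out of the totals were chosen after seeing the data. No paired analysis was possible because there is 1 library and no result comes from a test. Depth limits genes such as Slc6a4, with 32 UMIs over all EC cells.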

Other observations

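Genes of histamine synthesis and of a serotonin receptor were near the limit of counting in the endocrine cells. Hdc, the histidine decarboxylase of histamine synthesis, had 24 UMIs in EC cells (3.74 CPM) and 9 UMIs in peptide hormone cells, 7 of them in cells led by Gip (16.8 CPM, 6.76 to 34.6) and 1 in cells led by Sst (10.6 CPM, 0.27 to 59.3). Htr1d, a serotonin receptor gene, had 8 UMIs in EC cells (1.25 CPM) and 8 UMIs in peptide hormone cells, 6 of them in cells led by Gip (14.4 CPM, 5.29 to 31.4). The intervals of Gip-led and Sst-led cells overlap for Hdc.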
